A study of Mus musculus with 2 samples.

Results

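Early thymic progenitors that lacked surface Flt3, Ly6d and heat-stable antigen (HSA, the product of Cd24a) were 1205 of the 8293 cell barcodes of a single-cell RNA-seq library of mouse thymus, and 1205 of the 7948 that the authors assigned to a sorted population. The cells were taken by that label, which rests on the hashtag antibody each population was stained with, so no expression value chose them. The other populations of the pool were Flt3+ Ly6d- HSA- cells (1412), Flt3+ HSA+ cells (1182), Flt3- Ly6d+ cells, sorted without regard to HSA (847), and a control of Lin- Kit+ cells that spans early thymic progenitors to the DN2 stage (3302). All came from thymus of C57BL/6 mice homozygous for a Bcl11b-YFP reporter allele (Bcl11b yfp/yfp), all were Lin-, 7AAD- and Kit+, and the 4 gated fractions were CD25- and negative for the Bcl11b reporter. The labels give no age and no number of mice. Each population was sorted once and all 5 were sequenced in 1 library, so there are no replicates, no test between populations was run, and every interval below is a 95% interval for counting error only.

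Early thymic progenitors are the most immature Kit-high cells of the thymus. They arrive from the bone marrow with Flt3 and other progenitor genes on, receive Notch signals in the thymus, switch on T-cell regulators such as Tcf7 and Gata3, and later become DN2 cells that carry CD25 (Il2ra) and start Bcl11b as they commit to the T lineage. Loss of Flt3 is generally read as a step along this path, and early thymic progenitors are known to keep some capacity for myeloid, natural killer and mast cell fates.

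Gene levels are given as CPM, the UMIs (counted molecules) of a gene per 1000000 UMIs of a population, summed over its cells. The Flt3- Ly6d- HSA- population gave 14018324 UMIs, with a median of 9860 per cell (range 502 to 46306), the lowest of the 5 medians, the others lying between 11404 and 21152. A median of 98.8% of a cell's hashtag counts came from its own hashtag. Some cells stood apart: 97 of the 1205 (8.05%, 6.58 to 9.73) held UMIs of at least 7 of 14 granulocyte and monocyte markers, against 4.89% of Flt3+ Ly6d- HSA-, 2.28% of Flt3+ HSA+, 1.39% of control and 0 of 847 Flt3- Ly6d+ cells, which allows a share of up to 0.354%. These cells, called the granulocyte class here, had a median of 29483 UMIs against 9483 in the remaining 1108, and supplied 19.8% of the population's UMIs. Results that rest on them are therefore given with and without them, the class being left out of every population. Few cells lay near the limit, with 9, 11, 3 and 8 holding 5, 6, 7 and 8 of the markers, while 22, 28 and 21 held 9, 10 and 11.

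The genes given as marks of the Flt3- Ly6d- HSA- population were Cpa3, Tcf7, Deptor, Cd160, Qrfp and Apoe. Tcf7 encodes the Notch-induced transcription factor TCF-1 of early T-lineage specification, Cpa3 a mast cell carboxypeptidase also found in early progenitors, Deptor an inhibitor of the mTOR kinase, Cd160 a receptor of natural killer and T cells, Qrfp an RF-amide neuropeptide, and Apoe a lipid-binding apolipoprotein. In GENCODE M21 (mm10), Cpa3 lies at chr3:20215620-20242181, Cd160 at chr3:96798763-96829351, Qrfp at chr2:31806166-31810580, Apoe at chr7:19696109-19699188 and Tcf7 at chr11:52252371-52283014, all on the minus strand, and Deptor at chr15:55112317-55259271 on the plus strand. GATA factors belong to both the T-lineage and the mast cell programs, so the 250 bases before the RefSeq starts (GRCm38.p6) were searched on either strand for the letters GATA with A or T before them and A or G after them. Cpa3 and Cd160 hold 1 match each and are shown with the match in capitals, read 5′ to 3′ on the minus strand, at chr3:20242182-20242431 and chr3:96829352-96829601.
Cpa3: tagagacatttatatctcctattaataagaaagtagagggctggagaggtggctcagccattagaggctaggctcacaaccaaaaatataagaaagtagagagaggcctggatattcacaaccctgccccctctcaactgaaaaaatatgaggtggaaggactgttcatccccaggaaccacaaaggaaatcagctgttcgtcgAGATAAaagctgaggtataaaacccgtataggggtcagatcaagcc
Cd160: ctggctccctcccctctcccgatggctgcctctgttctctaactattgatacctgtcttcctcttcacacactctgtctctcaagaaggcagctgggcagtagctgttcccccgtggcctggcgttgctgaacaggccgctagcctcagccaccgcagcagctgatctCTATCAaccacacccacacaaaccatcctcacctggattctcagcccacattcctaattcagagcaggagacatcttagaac
The match in Cpa3 is AGATAA, beginning 46 bases before the start, and that in Cd160 is CTATCA, the reverse complement of TGATAG, beginning 82 bases before it. Such a match was present in 27.1% of 27025 mouse promoter windows of the same length. The windows of Qrfp and Apoe hold none, which says only that these letters are not in 250 bases.

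Levels of the 6 genes in the Flt3- Ly6d- HSA- population were 2.47- to 11.5-fold above both Flt3+ populations, but only Apoe was at least 2-fold above the Flt3- Ly6d+ cells as well. In the order Flt3+ Ly6d- HSA-, Flt3+ HSA+, Flt3- Ly6d- HSA-, Flt3- Ly6d+ and control, Cpa3 was at 22.7, 34.3, 262, 219 and 358 CPM. Tcf7 in the same order was at 30.2, 42.8, 122, 211 and 215 CPM. The step from the Flt3+ to the Flt3- populations was larger for Cpa3 (11.5-fold over Flt3+ Ly6d- HSA-, 10.5 to 12.6) than for Tcf7 (4.03-fold, 3.70 to 4.40), and Tcf7 was 1.74-fold lower than in Flt3- Ly6d+ cells where Cpa3 was 1.19-fold higher. Deptor stood at 15.8, 25.1, 69.3, 75.3 and 58.95 CPM, with the Flt3- Ly6d- HSA- and Flt3- Ly6d+ values not separated by counting error (ratio 0.920, 0.837 to 1.01). Cd160 was at 8.24, 15.5, 38.3, 55.4 and 31.8 CPM and Qrfp at 6.01, 8.35, 31.7, 40.5 and 16.9 CPM. Both were thus highest in Flt3- Ly6d+ cells, second in Flt3- Ly6d- HSA- cells and lower in the control, Qrfp by 1.88-fold (1.68 to 2.10). Apoe had another order, at 6.66, 4.45, 45.5, 12.9 and 12.5 CPM, 3.53-fold (2.93 to 4.27) above Flt3- Ly6d+ cells and 3.63-fold above the control.

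**Figure D1:**
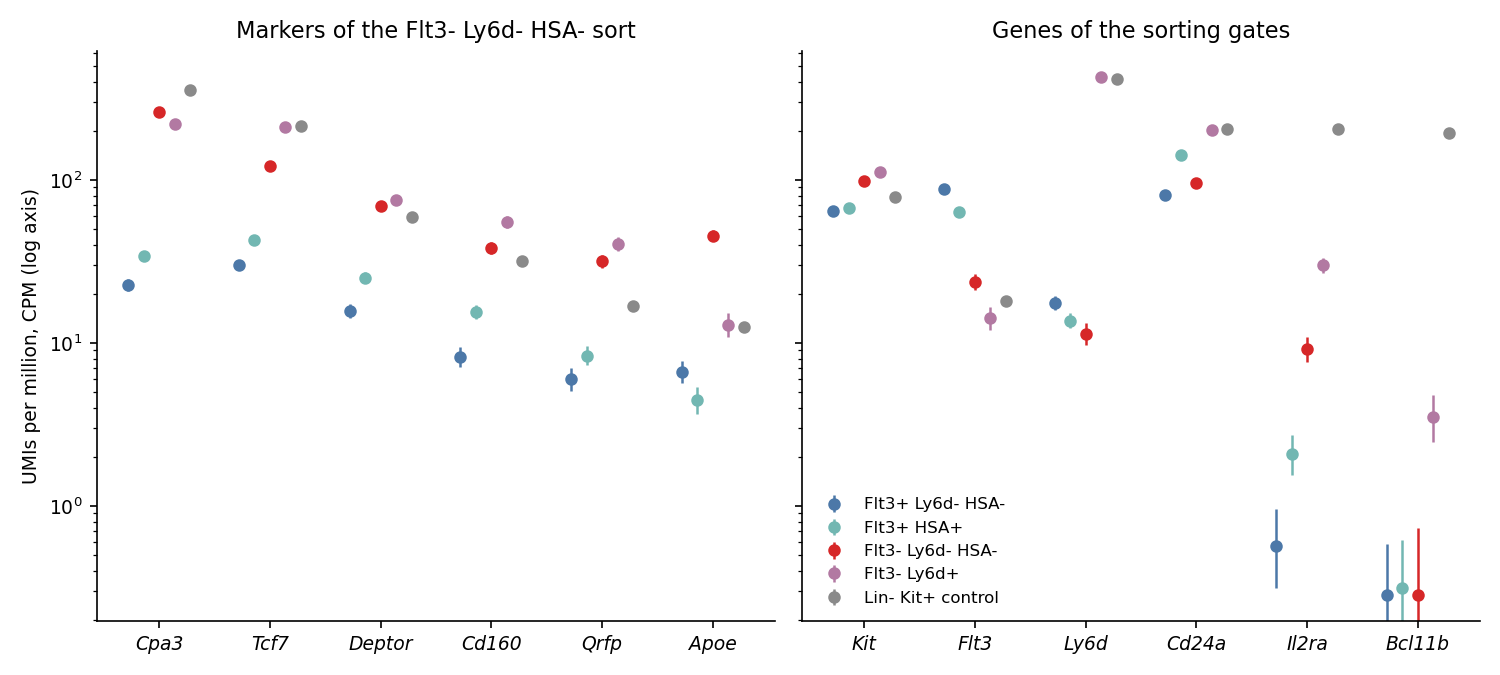
CPM on a log axis of the 6 marker genes (one panel) and of 6 genes of the sort gates (the other panel) in the 5 populations; points are summed levels and bars 95% Poisson intervals. All markers but Apoe are high in both Flt3- populations, with Tcf7 at 122 CPM in the Flt3- Ly6d- HSA- and 211 in the Flt3- Ly6d+ population, and Apoe is highest in the Flt3- Ly6d- HSA- population, at 45.5 CPM.

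The granulocyte class lowered most of these levels. Without it Tcf7 was at 149.6 CPM (0.709 of the Flt3- Ly6d+ level, 0.665 to 0.756), Deptor at 83.7, Cd160 at 47.0 and Qrfp at 39.0, while Cpa3 was at 253 and Apoe at 43.9 CPM. Qrfp, which had been 1.28-fold below the Flt3- Ly6d+ cells, then did not differ from them beyond counting error (ratio 0.964, 0.842 to 1.10). To compare shares of cells at equal depth, each cell was thinned to 3000 UMIs, which left out 45 cells and kept 1160, of which 1063 were outside the class. With the class counted in each population, a Cpa3 UMI was then seen in 37.9% of the 1160 cells, against 6.05% of Flt3+ Ly6d- HSA- and 41.5% of Flt3- Ly6d+ cells. A Tcf7 UMI was seen in 30.1%, against 10.4% and 44.8%. Among the 1063 cells outside the class the Cpa3 and Tcf7 shares were 38.4% and 32.7%. In the granulocyte class Tcf7 was seen in 1.03%, Qrfp in 1.03%, Cd160 in 0% and Deptor in 3.09% of 97 cells, against 32.7%, 10.6%, 12.5% and 20.98% of the remaining cells. Cpa3 was seen in 33.0% of the class, near the 38.4% of the remaining cells. Apoe differed from the other 5 genes in how it was spread over cells: it was seen in 4.80% of cells outside the class, close to the 4.48% of Flt3- Ly6d+ cells, and 10 cells held 47.7% of its 638 UMIs. With the class counted, the Apoe share was 5% (3.82 to 6.42), larger than in Flt3+ Ly6d- HSA- (2.13%, 1.45 to 3.03) and Flt3+ HSA+ cells (1.19%, 0.652 to 1.99). Against Flt3- Ly6d+ cells the higher summed level came with few cells of many UMIs.

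The gate genes were checked next. Flt3 was at 23.8 CPM, 3.69-fold below Flt3+ Ly6d- HSA- and 2.70-fold below Flt3+ HSA+ cells, and 1.67-fold (1.37 to 2.04) above Flt3- Ly6d+ cells. Ly6d was at 11.3 CPM against 431 in Flt3- Ly6d+ cells, 38.0-fold lower. Kit, the stem cell factor receptor, was at 98.6 CPM against 64.9 and 67.4 in the Flt3+ and 113 in the Flt3- Ly6d+ population. Flt3 and Ly6d RNA thus followed the gates. Cd24a, at 96.2 CPM, was 1.196-fold above the likewise HSA- Flt3+ population (80.5) and below Flt3+ HSA+ (142) and Flt3- Ly6d+ cells (203). Il2ra was at 9.20 CPM, between the Flt3+ populations (0.569 and 2.07) and the Flt3- Ly6d+ cells (29.95), and Bcl11b stood at 0.285 CPM against 193 in the control, so these DN2 genes were low.

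Few genes set the population apart from all 3 other gated populations. A gene was counted when its CPM differed at least 2-fold, the higher level was 20 CPM or more and 5% or more of the cells behind it held a UMI. In all, 5 genes were higher than in each of the other gated populations (0.0845% of 5920 measured), namely Apoe, Cebpa, Ccl9, Mcpt8 and Rab44, and 4 were lower (0.0676%), namely Nusap1, Ube2c, Prc1 and Kif11. Cebpa, the granulocyte and monocyte transcription factor, was at 27.0 CPM against 8.33, 4.68 and 0.188. Ccl9, a myeloid chemokine, was at 67.6 CPM against 20.9, 9.91 and 15.9. Of these, the granulocyte class held 84.1% of the Cebpa, 78.9% of the Ccl9, 70.7% of the Mcpt8 and 73.8% of the Rab44 UMIs, but 22.6% of the Apoe UMIs. Cebpa is among the markers that set the class, so its share follows in part from that choice. Without the class, 3 genes were higher (0.0503%): Apoe, the neutrophil protease gene Prtn3 and the immediate early gene Egr1. Egr1 was then at 37.8 CPM, 3.05-fold (2.61 to 3.56), 3.49-fold and 2.27-fold (1.90 to 2.72) above Flt3+ Ly6d- HSA-, Flt3+ HSA+ and Flt3- Ly6d+ cells. Prtn3 was at 26.9 CPM against 7.55, 5.89 and 9.04, which compares with 1094 CPM when the class is counted. Prtn3, too, is among the markers that set the class. Among thinned cells outside the class, a Prtn3 UMI was seen in 3.01% (2.07 to 4.22), with up to 7 in a cell. In thinned Flt3- Ly6d+ cells the share was 2.785% (1.77 to 4.15), with up to 1 in a cell. These shares overlap, so the higher Prtn3 level did not come with a larger share of cells. Whether cells just under the class limit carried it was not tested. Gata2, a regulator of stem, mast and basophil cells, lay below the 20 CPM minimum but was also above all 3 other gated populations. It was at 16.1 CPM against 3.05, 2.11 and 1.60 with all cells. Without the class it was at 15.3 CPM, 6.01-fold (4.42 to 8.28), 7.58-fold and 9.55-fold (5.79 to 16.8) higher.

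All 4 genes that were lower work in mitosis. Ube2c, the ubiquitin-conjugating enzyme of the anaphase-promoting complex, was at 33.5 CPM, 6.39-fold, 13.7-fold and 2.28-fold below Flt3+ Ly6d- HSA-, Flt3+ HSA+ and Flt3- Ly6d+ cells. Nusap1, a spindle microtubule protein, was at 12.9 CPM, 6.18-fold, 13.3-fold and 2.66-fold lower. Without the granulocyte class the number of lower genes was 21 (0.352%), the others including Mki67, Top2a, Aurkb, Cdk1, Ccna2, Rrm2, Tk1 and Clspn. The class was itself rich in dividing cells: 28 of the 76 cells that held 5 or more UMIs from a list of 21 genes of G2 and M phase were in it. Those 76 cells were 6.55% of the 1160 thinned cells (5.20 to 8.13), against 25.7% of Flt3+ Ly6d- HSA-, 51.6% of Flt3+ HSA+, 8.84% of Flt3- Ly6d+ and 27.7% of control cells. Leaving such cells out of every population reduced the lower genes from 4 to 1, and leaving out the 5% deepest cells reduced them to 0. The 4 genes are among the 21 used to pick those dividing cells, so the first reduction follows in part from that rule.

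**Figure D2:**
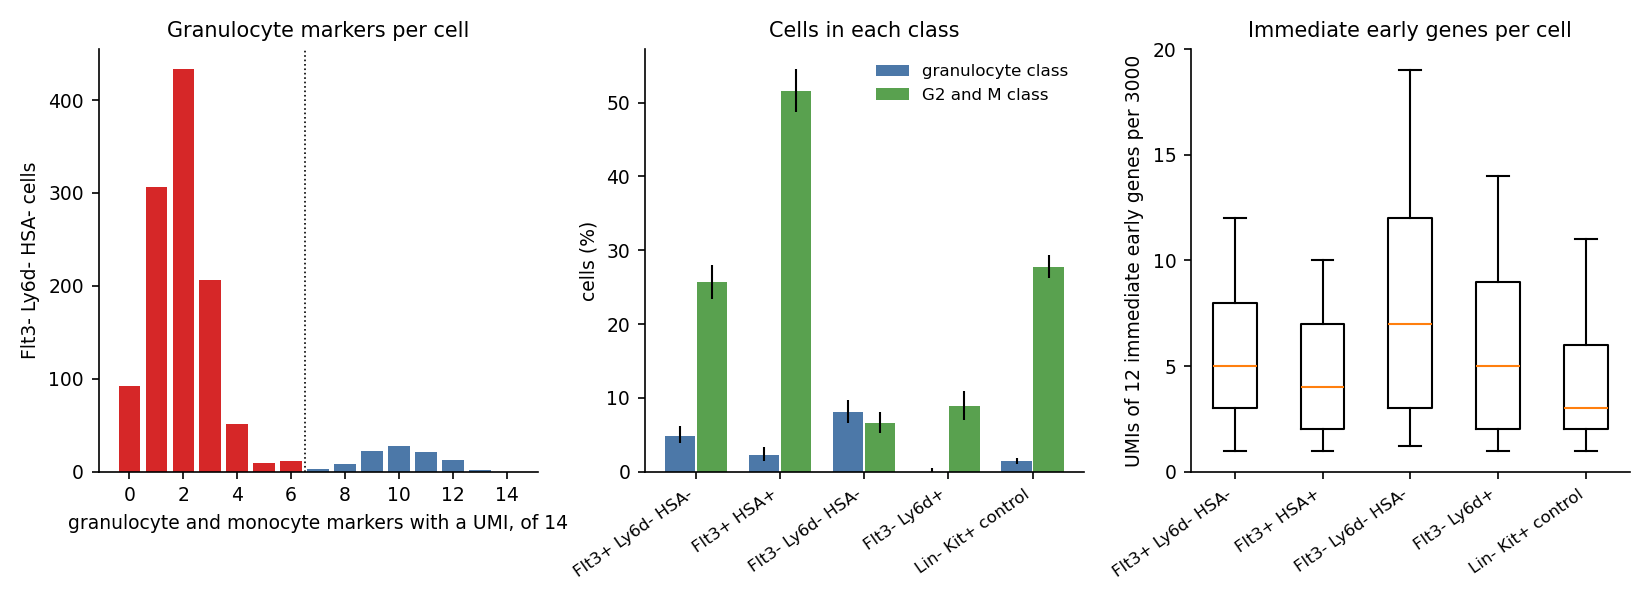
Number of granulocyte and monocyte markers per Flt3- Ly6d- HSA- cell, with a line between 6 and 7 markers; percent of cells in the granulocyte and in the G2 and M class in each population, with 95% intervals; and UMIs of immediate early genes per 3000 outside the granulocyte class (box, quartiles; line, median; whiskers, 10th to 90th percentile). The Flt3- Ly6d- HSA- population has the largest granulocyte share, 8.05%, the smallest G2 and M share, 6.55%, and the highest immediate early median, 7 UMIs.

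Against the Flt3+ Ly6d- HSA- population, which differs from it in the Flt3 gate, 40 genes were higher (0.703% of 5691) and 107 lower (1.88%). Against Flt3+ HSA+ cells the counts were 62 (1.08%) and 179 (3.12%), and against the control 76 (1.3%) and 197 (3.38%). Genes named for their ratios over the Flt3+ populations included the markers above, Muc13 (34.4 CPM against 6.70 and 8.16), a cell-surface mucin, and Fcer1g (156 CPM against 60.9 and 41.8), the common Fc receptor gamma chain. Lower than in Flt3+ Ly6d- HSA- cells by the most was Ccr9, a chemokine receptor used by progenitors that settle the thymus, at 4.71 against 35.9 CPM (7.63-fold), and it was also 2.70-fold below Flt3+ HSA+ cells. The remaining 7 of the 8 genes named there for size were cell-division genes. Without the granulocyte class the counts were 62 (1.07%) and 146 (2.53%) against Flt3+ Ly6d- HSA-, 86 (1.47%) and 242 (4.14%) against Flt3+ HSA+, and 90 (1.53%) and 255 (4.33%) against control cells.

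The Flt3- Ly6d+ population was the nearest, with 33 genes lower (0.581% of 5683) and 13 higher (0.229%) in it than in Flt3- Ly6d- HSA- cells. Of the 33, the largest ratios belonged to genes of granule-bearing myeloid cells such as Elane (675 against 1.41 CPM), Ms4a3 (162 against 0.283) and Prtn3 (1094 against 9.04). The class decided most of this direction, since without it 8 genes were higher (0.141%) in Flt3- Ly6d- HSA- cells and 28 lower (0.492%). The 8 were Apoe (3.40-fold, 2.81 to 4.14), Prtn3 (2.97-fold), Egr1 (2.27-fold), Ctss (2.10-fold), a lysosomal protease, Adgrl4 (2.05-fold), Cnrip1 (2.04-fold), Flt3 (2.02-fold, 1.66 to 2.47) and 1 predicted gene. Adgrl4, Cnrip1 and Ctss are outside the rule for named genes and were chosen after their values were seen. The gate gene Ly6d was 31.1-fold lower, and Fgf3, a fibroblast growth factor, 5.07-fold lower at 4.54 against 23.0 CPM. Il2ra was 2.61-fold lower (2.12 to 3.23), Ccl5, a chemokine of effector lymphocytes, 2.45-fold lower (30.3 against 74.1 CPM) and the adult beta-globin gene Hbb-bt 2.39-fold lower (236 against 563 CPM). The others were mostly cell-cycle genes, among them Aurkb (3.43-fold), Rrm2 (3.32-fold), Pbk (2.93-fold) and Nusap1 (2.91-fold). Flt3- Ly6d- HSA- cells were thus above Flt3- Ly6d+ cells in Flt3 and below them in Il2ra and summed cell-division RNA, by values larger than counting error. Few cells held much of the latter, 10 cells having 53.0% of the Nusap1 UMIs, which the intervals do not cover. With the granulocyte class counted, 6.55% (5.20 to 8.13) and 8.84% (6.99 to 10.98) of thinned cells were in the G2 and M class, which overlap. Outside the granulocyte class Mki67 was seen in 4.52% (3.35 to 5.94) against 8.23% (6.45 to 10.3).

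Genes of the early T-cell program were examined as lists, in which a member counted as higher or lower at 1.5-fold and was measured if it reached 5 CPM in either population. Over all genes, 4.56% were higher and 4.59% lower by this rule against Flt3+ Ly6d- HSA-, 6.21% and 6.13% against Flt3+ HSA+, 2.47% and 1.75% against Flt3- Ly6d+, and 5.97% and 7.49% against control cells, with median log2 ratios of 0.03, 0.04, -0.02 and -0.02. Without the class, in the same order, these shares were 6.75% and 6.2%, 9.56% and 7.88%, 1.68% and 2.45%, and 7.98% and 9.09%. Of 12 measured T-lineage regulators, 4 were higher than in Flt3+ Ly6d- HSA- cells and 0 lower (median log2 ratio 0.36). These were Tcf7, Gata3 (27.4 against 16.7 CPM), Tox (83.1 against 43.7), a nuclear factor of T-cell and innate lymphoid development, and Zfpm1 (19.6 against 6.90), a GATA cofactor. Against Flt3+ HSA+ cells 2 of 12 were higher (Tcf7 and Zfpm1) and 0 lower, with a median of 0.26, Tox joining them without the granulocyte class. Against Flt3- Ly6d+ cells only Tcf7 was lower (1 of 12, median -0.20), and without the class none was past 1.5-fold in either direction (median -0.08). Against the control 6 of 14 were lower (Tcf7, Gata3, Bcl11b, Lef1, Ets1 and Tcf12), with a median log2 ratio of -0.40. Runx1, Myb and Ets1 were measured but did not pass against either Flt3+ population, Ets1 being at 18.0 CPM against 19.7 and 17.3.

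Notch receptors and targets were mixed. Dtx1, a direct Notch target, was at 7.78 CPM against 0.853 and 0.507 in the Flt3+ populations, 9.12-fold (5.68 to 15.3) and 15.3-fold (8.60 to 29.7) higher, and did not differ from the 9.51 CPM of Flt3- Ly6d+ cells beyond counting error (ratio 0.817, 0.618 to 1.08). Hes1 was at 136 CPM against 107, 99.3, 167 and 115, and Notch1 at 137 against 119, 114, 167 and 145, so neither passed 1.5-fold with all cells, though without the granulocyte class Hes1 did against Flt3+ HSA+ cells (169 against 105 CPM). Hes5 was lower than in Flt3+ Ly6d- HSA- cells, at 4.71 against 7.19 CPM. In all, 1 of 6 measured genes was higher and 1 lower than in Flt3+ Ly6d- HSA- cells (median 0.14). Among 8 measured genes of the T-cell receptor and its signalling, 1 was higher than in Flt3+ Ly6d- HSA- cells (Cd7, 128 against 66.7 CPM) and 3 lower: Dntt, the terminal transferase of antigen receptor joining (592 against 1008), Rag2 (4.35 against 11.5) and Thy1 (5.07 against 12.5). Against the control 11 of 13 were lower and 1, Cd7, higher, with a median log2 ratio of -1.72. Cd3g stood at 0.64 CPM against 193 there.

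Stem and progenitor regulators showed no common direction against the Flt3+ populations. Of 17 measured, Gata2 and Gfi1b were higher than in Flt3+ Ly6d- HSA- cells, and Meis1, Hoxa9 and Hmga2 lower, Hmga2 by 3.32-fold (14.3 against 47.4 CPM), with a median log2 ratio of -0.02. Spi1 (PU.1) was at 240 CPM against 176 and 166, and Mef2c at 320 against 353 and 344, inside 1.5-fold in each case. Against Flt3- Ly6d+ cells, 2 of 17 were higher and none lower (Gata2 and Lmo2, an LIM-domain bridging factor, at 136 against 62.9 CPM), with a median of 0.12 that was 0.29 without the class. Against the control 7 of 17 were higher, namely Spi1, Lmo2, Hhex, Mef2c, Meis1, Gata2 and Cd34, and none lower, with a median of 0.52. Lmo2, Spi1 and Cd34 thus stood above the control, and the levels of Hmga2 and Hoxa9 (48.7 against 96.6 CPM) below Flt3+ Ly6d- HSA- cells.

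Among homing and cytokine receptors, Ccr9 (4.71 CPM) and Ccr7 (1.86 against 5.16) were the 2 of 14 measured that were lower than in Flt3+ Ly6d- HSA- cells, and 3 were higher, including the integrins Itga4 (195 against 87.5) and Itgb7 (69.8 against 40.9), which pair as a homing receptor. Itga4 was at 325 CPM in Flt3- Ly6d+ cells, 1 of the 2 members that were lower there along with Il7r (14.1 against 29.6). In the list of mTOR regulators, Deptor and the stress-induced inhibitor Ddit4 (9.56 against 5.28 CPM) were the 2 of 12 that were higher than in Flt3+ Ly6d- HSA- cells, and none was lower. Natural killer and innate lymphoid genes differed more: 6 of 8 measured were higher than in Flt3+ Ly6d- HSA- cells, with a median log2 ratio of 1.16 that was 1.33 without the granulocyte class. These were Gzmb, Id2, Rora, Fcer1g, Cd160 and Tyrobp, the adaptor of activating receptors (641 against 310 CPM). Against Flt3+ HSA+ cells 6 of 8 were higher as well (median 1.28), with Klrd1, a lectin-like receptor chain, in place of Id2, but against Flt3- Ly6d+ cells only Gzmb was (median 0.24). Gzmb, granzyme B, was at 8.77 CPM, and 10 cells held 70.7% of its 123 UMIs.

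Cell-cycle genes were lower than in the Flt3+ and control populations. All 21 G2 and M phase genes were lower than in Flt3+ Ly6d- HSA-, Flt3+ HSA+ and control cells, with median log2 ratios of -1.90, -2.71 and -2.23, and 10 of 21 were lower than in Flt3- Ly6d+ cells (median -0.58). Once cells of the G2 and M class were left out, 13 of 18, 13 of 18 and 10 of 17 measured genes were still lower against the first 3 (medians -1.03, -1.21 and -0.87), whereas against Flt3- Ly6d+ cells 3 of 14 were higher and none lower (median 0.33). The class is picked by UMIs of these same genes, so part of this change follows from the rule. Of 23 S phase genes, 13, 18, 0 and 22 were lower than in Flt3+ Ly6d- HSA-, Flt3+ HSA+, Flt3- Ly6d+ and control cells, and 23, 23, 7 and 23 without the granulocyte class. Growth genes linked to Myc differed less, with 0 of 15 past 1.5-fold against either Flt3+ population (both medians -0.31). Without the class, 4 of 15 (Odc1, Srm, Polr1b and Nolc1) were lower than in Flt3+ Ly6d- HSA- cells.

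Immediate early genes, which switch on within minutes of many stimuli including tissue dissociation, were higher in the Flt3- Ly6d- HSA- population than in the Flt3+ HSA+ and control populations for most members. Of 12 measured, 6, 10, 1 and 10 were higher than in Flt3+ Ly6d- HSA-, Flt3+ HSA+, Flt3- Ly6d+ and control cells and none lower, with medians of 0.59, 0.77, 0.30 and 0.84. Fos was at 197 CPM against 116, 115, 162 and 112, Jun at 629 against 483, 405, 455 and 332, and Junb at 201 against 129, 111, 179 and 111. Without the granulocyte class 9, 11, 3 and 12 were higher. Dividing cells were fewer in this population, and without the G2 and M class the counts were 3, 5, 2 and 9 of 12.

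**Figure D3:**
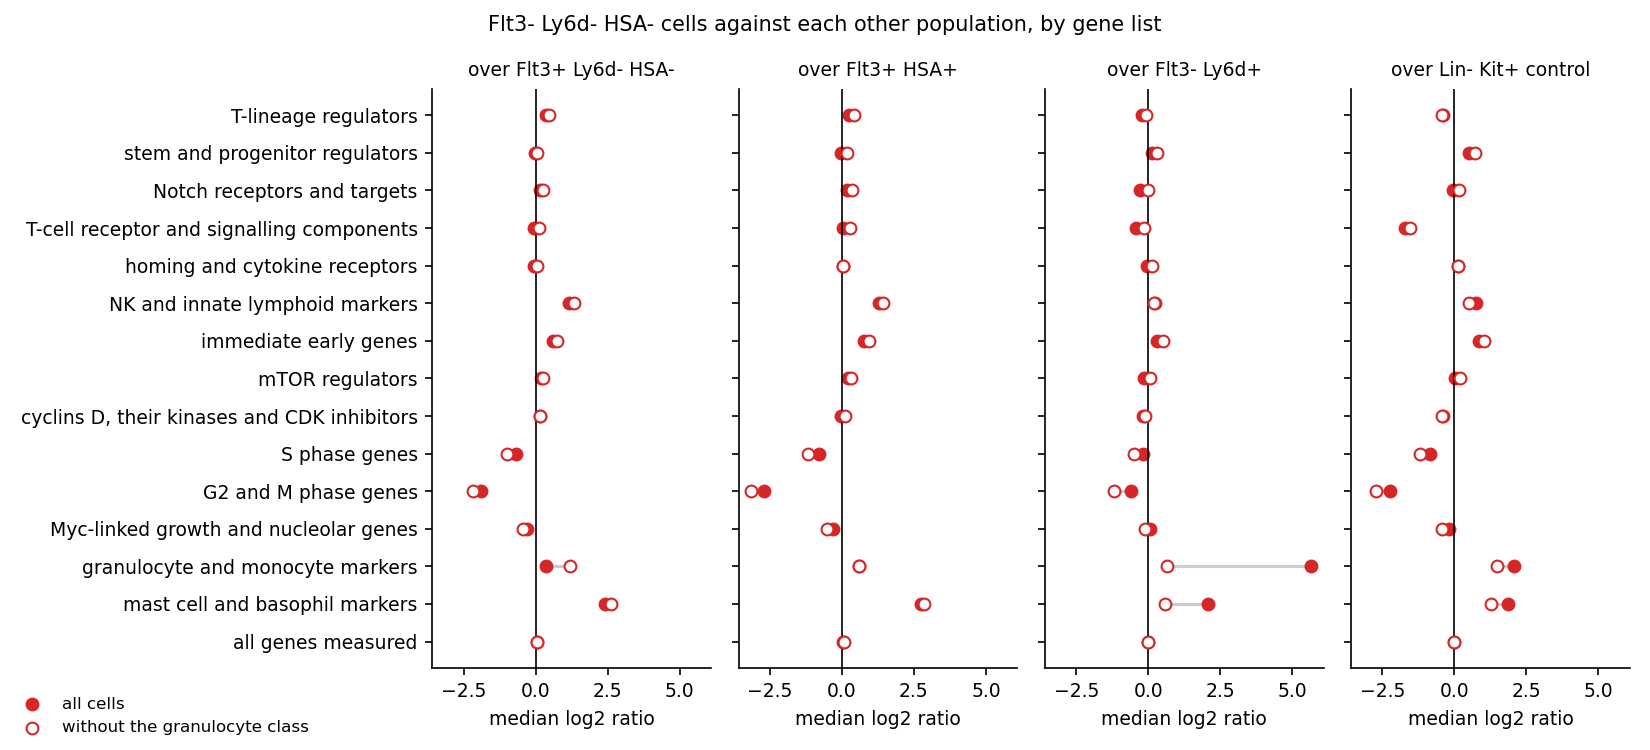
Median log2 CPM ratio of Flt3- Ly6d- HSA- cells over each other population for 14 gene lists and for all genes; filled symbols use all cells and open symbols leave out the granulocyte class. G2 and M phase genes lie lowest, between -1.90 and -2.71 against the Flt3+ and control populations, and natural killer and innate lymphoid genes at 1.16 and 1.28 against the Flt3+ populations.

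To place the population between the Flt3+ Ly6d- HSA- and the Flt3- Ly6d+ cells, genes that differed at least 2-fold between those 2 were chosen without using Flt3- Ly6d- HSA- values. A position of 0 stands for the Flt3+ Ly6d- HSA- level and 1 for the Flt3- Ly6d+ level on the log2 scale. Of 74 genes higher in Flt3- Ly6d+ cells (1.28% of those measured), 69 had an intermediate level in Flt3- Ly6d- HSA- cells and 66 lay nearer to the Flt3- Ly6d+ side. The median position was 0.71 (quartiles 0.63 and 0.84), and 0.84 (0.70 and 0.94) over the 69 such genes (1.2%) without the granulocyte class. Tcf7 was at 0.72, Il2ra at 0.70, Gata3 at 0.63, Itga4 at 0.61, Cd160 at 0.81, Cd7 at 0.84, Tox and Qrfp at 0.87, and Cpa3 went past the Flt3- Ly6d+ level at 1.08. Lag3 (1.15), an inhibitory receptor, and Clec4e (1.12), a C-type lectin, were past it too, both named after their values were seen. Cd24a, at 0.19, and Ly6d, which lay beyond the Flt3+ Ly6d- HSA- side, were the gate genes that kept low positions. Most genes with more RNA in Flt3- Ly6d+ cells were thus past the midpoint of that log2 difference in Flt3- Ly6d- HSA- cells.

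Of 94 genes lower in Flt3- Ly6d+ cells (1.63%), 34 were intermediate, 46 were lower still in Flt3- Ly6d- HSA- cells and 14 were on the Flt3+ Ly6d- HSA- side. The 46 were mostly cell-cycle genes and the 14 included the granule genes Elane, Prtn3, Mpo and Ctsg. Without the granulocyte class, 30 of 76 such genes (1.32%) were intermediate, 46 were past the Flt3- Ly6d+ level and 0 were on the Flt3+ side. Among intermediate genes, Flt3 was at 0.72, Ccr9 at 0.79, Hoxa9 at 0.77, Meis1 at 0.64 and Hmga2 at 0.85. Genes near the Flt3+ Ly6d- HSA- level, named after their values were seen, included Anxa1 at 0.11 (66.4 CPM, against 80.6 and 14.8), Lgals1 at 0.10 (398 CPM, against 427 and 207) and Emb at 0.19 (187 CPM, against 227 and 80.8). These positions rested on the granulocyte class: without it Anxa1 was at 0.39 (29.4 CPM, against 45.4 and 14.8) and Emb at 0.60 (115 CPM, against 192 and 80.8), while Lgals1 was no longer among the genes that differed 2-fold. Anxa1, Lgals1 and Emb encode annexin A1, galectin-1 and embigin.

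**Figure D4:**
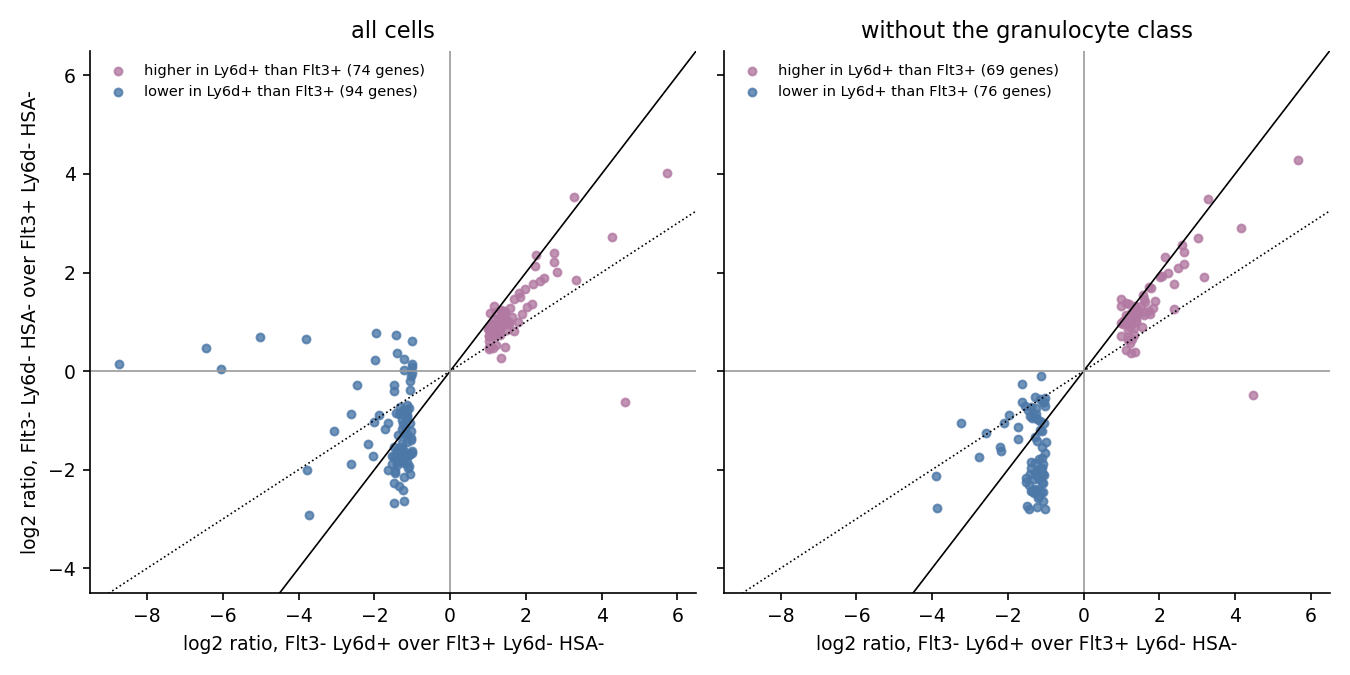
For genes that differ at least 2-fold between Flt3+ Ly6d- HSA- and Flt3- Ly6d+ cells, the log2 ratio of Flt3- Ly6d- HSA- over Flt3+ Ly6d- HSA- (y) against that of Flt3- Ly6d+ over Flt3+ Ly6d- HSA- (x), with all cells and without the granulocyte class; the solid line marks equal change and the dotted line the midpoint. Of the 74 genes that are higher in Flt3- Ly6d+ cells, 66 lie nearer to the solid line's level than to no change.

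How the 1205 cells differed among themselves was described from the variance of UMIs per cell over the mean, at 3000 UMIs per cell, where pure counting gives 1. Of 6112 genes with a mean of at least 0.05 UMI, 67 (1.1%) had a value of at least 2, and 60 of 6080 (0.987%) without the granulocyte class. The T-lineage regulators stayed below that: the median of 12 was 1.07 with 0 at 2 or more, and Gata3, Runx1 and Tox were at 1.02, 1.09 and 1.26. Tcf7 was at 1.51, Deptor at 1.28 and Cd160 at 1.40, against a median of 1.02 over all genes. Of 21 S phase and 14 Myc-linked genes measured, 0 were at 2 or more, whereas 7 of 12 immediate early genes (median 2.51), 6 of 7 granulocyte and monocyte markers and 3 of 3 mast cell and basophil markers did. For genes of low mean this measure stays near 1 even where a subset of cells holds the RNA, so it does not show that cells were alike in them. Lymphoid and innate genes at 2 or more included Dntt (2.70), Cd7 (2.10), Id2 (2.73), Fcer1g (2.72) and Il7r (3.18), and 2 of 9 G2 and M phase genes were too.

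**Figure D5:**
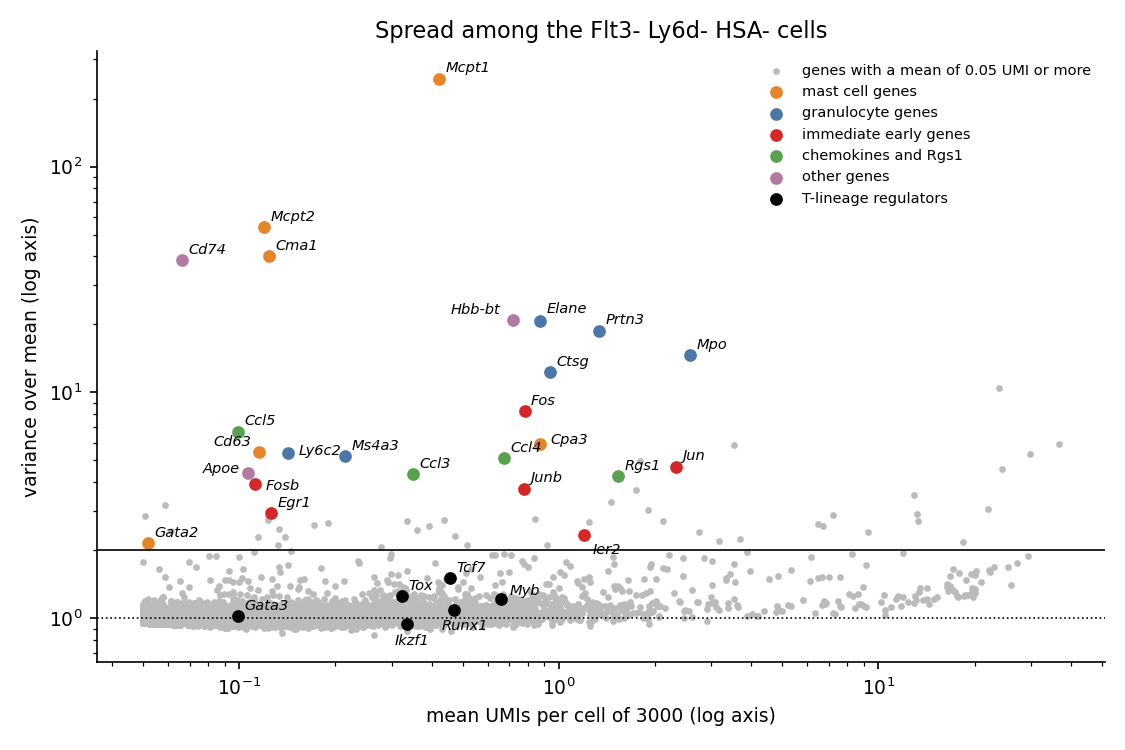
Variance over mean of UMIs per cell against the mean, both on log axes, for genes in Flt3- Ly6d- HSA- cells thinned to 3000 UMIs, with lines at 1 (Poisson counting) and 2. The highest points are Mcpt1 at 245, Mcpt2 at 53.8, Cma1 at 40.2 and Cd74 at 38.5.

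The highest values belonged to genes of very few cells. Mcpt1, Mcpt2 and Cma1, which encode mast cell proteases, had variances over mean of 245, 53.8 and 40.2 and were seen in 2, 4 and 5 cells. In all 1205 cells, 7 held at least 5 UMIs of Mcpt1, Mcpt2, Mcpt4 or Cma1, against 0 Flt3+ Ly6d- HSA-, 2 Flt3+ HSA+, 0 Flt3- Ly6d+ and 6 control cells. One held 594 Mcpt1 and 35 Mcpt8 UMIs of 7114, another 348 Mcpt2 and 50 Cma1 of 15206, and another, of 1396 UMIs, 99 Cma1 and 51 Tpsb2. All 7 had Cpa3 (3 to 47 UMIs), 6 of 7 had no Tcf7, and none was in the granulocyte class. These 7 were separated from the other cells after the data were seen, and 5 of them were among the 1063 thinned cells outside the class. They carried part of the spread of other genes: without them the variance over mean of Cpa3 changed from 6.01 to 2.81, of Cd63 from 6.73 to 2.01, of Fos from 8.38 to 2.70 and of Egr1 from 2.94 to 1.63. Apoe (4.48 and 4.55), Ccl4 (5.05 and 4.26) and Jun (4.68 and 3.10) stayed above 2. The 7 cells and the granulocyte class together left the counts of genes that differed from each population within 4 of those without the class alone.

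Granule genes accounted for another set. Elane, Prtn3, Mpo, Ctsg and Ly6c2 had variances over mean of 20.7, 18.8, 14.6, 12.3 and 5.37 over all cells and of 3.50, 3.15, 1.58, 2.55 and 1.40 outside the granulocyte class. These genes are among the 14 markers that set the class, so lower values outside it follow from that choice. Mpo, myeloperoxidase, was still widely present, with a UMI in 83.2% of unthinned cells outside the class and 373 CPM, against 349 CPM in Flt3- Ly6d+ cells. The 97 cells held 80.9% of its 21933 UMIs. In the class Cebpa was at 115 CPM and Cebpe at 122 CPM, against 5.34 and 0.178 in the remaining cells, but both are among the markers that set it. Cd7, which is not, was at 1.08 against 159.7 CPM. The class, chosen for granulocyte and monocyte RNA, thus held little of the Cd7 RNA seen in the others.

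Hbb-bt had a variance over mean of 20.97, with UMIs in 125 of 1160 cells (10.8%, 9.05 to 12.7) and up to 41 in 1 cell. It was seen in 4.20% of Flt3+ Ly6d- HSA-, 6.38% of Flt3+ HSA+, 18.6% of Flt3- Ly6d+, 19.2% of control and 5.16% of granulocyte class cells. The erythroid markers Hba-a1 and Hba-a2 were listed at 0. Hbb-bt is near-identical to its neighbour Hbb-bs, and the Mcpt genes are close relatives, so the levels of single copies are uncertain. Cells with and without Hbb-bt had like shares with Tcf7 (33.3% and 32.7%) or Cpa3 (39.2% and 38.3%), at median depths of 9957 and 9664 UMIs. Gata2 was seen in 9.17% (4.67 to 15.8) of those with it against 2.44% (1.55 to 3.64), mast cell and basophil markers summed to 1.76-fold (1.51 to 2.04) and T-cell receptor and signalling genes to 0.798 (0.716 to 0.887) of the level without it. The mast cell and basophil sum was 219 UMIs in 120 cells. Mast protease cells were not left out here, and 1 thinned cell of the sort held 59 Cma1 UMIs. The interval does not cover such cells. Cd74, the MHC class II invariant chain, was at 11.4 CPM, and 12 cells held 93.5% of its thinned UMIs among the 17 that had any. Ccl5 (6.72) was seen in 47 cells.

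Cells with a Tcf7 UMI were compared with those without, among the 1063 thinned cells outside the granulocyte class, and genes were counted at 1.5-fold with at least 50 CPM and 5% of cells in the higher group. Such cells are not replicates, a cell without a UMI may still hold the RNA, and the median depth before thinning was 8724 against 10236 UMIs. In the 348 cells with Tcf7, 32 genes were higher (1.08% of 2963) and 12 lower (0.405%). Ccl5 was 4.17-fold (2.74 to 6.44), Qrfp 1.70-fold and Cd160 1.60-fold higher, while Deptor was seen in 20.98% of both. The share of cells with Ccl5 differed less, at 5.46% (3.32 to 8.40) against 3.64% (2.39 to 5.28), and over the sort 12 cells held 63.5% of its thinned UMIs. Lower were the replication genes Mcm5 (0.486 of the level without Tcf7), Rpa2 (0.628), Pcna (0.659) and Dut (0.663), named after their values were seen. As lists, S phase genes were at 0.717 (0.669 to 0.767) and G2 and M genes at 0.633 (0.545 to 0.733) of the level in cells without Tcf7. The stem cell antigen Cd34 was seen in 57.5% against 70.2% of cells, Flt3 in 4.598% against 9.79% and Gata2 in 1.15% against 4.20%. Within the sort, cells with Tcf7 RNA thus had more Qrfp and Cd160 and less Flt3, Cd34 and replication RNA. The last was not particular to Tcf7. Split by Cpa3 or Ccl4, which also left the cells with the RNA at lower median depth, S phase genes were at 0.741 and 0.675. Split by Flt3 or Hbb-bt they were at 1.07 (0.962 to 1.19) and 0.937 (0.849 to 1.03).

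Cpa3 divided the cells partly along other genes. Of the 1063, 408 had a Cpa3 UMI, with 33 genes higher (1.12% of 2959) and 9 lower (0.304%), at median depths of 8728 and 10480 UMIs. Gata2 was seen in 6.62% of them against 1.07% of the rest, 10.8-fold (4.84 to 28.3) by UMIs and 8.36-fold (3.67 to 22.3) without the mast protease cells. Apoe was seen in 7.11% against 3.36%, 3.40-fold by UMIs and 3.35-fold without the mast protease cells. Cd63, a granule membrane protein, was 7.17-fold higher and 2.71-fold without them, Fos 1.78-fold and 1.30-fold, and Egr1 2.93-fold and 1.94-fold. Tcf7 itself differed little, in 35.5% of cells with and 31.0% of cells without Cpa3, and Il2ra was seen in 1.96% against 4.73%. Mcm4 and Lmnb1, chosen after their values were seen, were 1.95-fold and 2.003-fold lower. Apoe and Gata2, which stood highest in this population, were therefore found more often in its Cpa3-bearing than in its other cells, and S phase RNA was lower in those cells as well (0.741, 0.695 to 0.790).

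The inflammatory chemokines Ccl3 and Ccl4 occurred together. Ccl4 was at 156 CPM (151 in Flt3+ Ly6d- HSA-, 78.3 in Flt3+ HSA+, 125 in Flt3- Ly6d+ and 45.6 in control cells) and was seen in 28.6% of the 1063 cells. Among these 304 cells Ccl3 was seen in 36.5%, against 9.09% of those without Ccl4, 5.93-fold (4.77 to 7.40) by UMIs, 62 genes being higher in all (2.06% of 3004) and 38 lower (1.26%). The immediate early list was 1.73-fold (1.66 to 1.80) higher in them and the G2 and M list at 0.514 (0.434 to 0.606), with median depths of 8518 and 10253 UMIs. In the granulocyte class Ccl4 was seen in 1.03% of cells. Cells with Ccl4 RNA were thus richer in Ccl3 and immediate early RNA and poorer in cell-division RNA. Per cell, the 12 immediate early genes summed to a median of 7 UMIs of 3000, against 5, 4, 5 and 3 in Flt3+ Ly6d- HSA-, Flt3+ HSA+, Flt3- Ly6d+ and control cells, and 26 cells (2.45%, 1.60 to 3.56) had 30 or more, against 0.449%, 0.087%, 0.847% and 0.468%. The highest cell, with 246, was 1 of the mast protease cells. The medians, which such cells do not set, were highest in this population too.

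A smaller set held Flt3 or Il7r RNA. Flt3 was seen in 86 of the 1063 cells (8.09%). With the granulocyte class counted in each population, its share was 7.59%, against 24.98% of Flt3+ Ly6d- HSA- and 3.63% of Flt3- Ly6d+ cells. By the rule used above, 179 genes were higher (5.66% of 3162) and 173 lower (5.47%) in those 86 cells. Near-equal shares in both directions came from a group that gives few UMIs per gene. They cannot be compared with the shares for the 348 cells with Tcf7 or the 408 with Cpa3. Tcf7 was seen in 18.6% of those 86 against 34.0% of the rest, Cd160 in 4.65% against 13.2% and Cd34 in 77.9% against 65.0%, at like median depths (9747 and 9673 UMIs). Il7r, the interleukin-7 receptor, was seen in 41 cells. Of these, 65.9% (49.4 to 79.9) held Tcf7 against 31.4% of the others, 24.4% held Id2, a factor required by innate lymphoid cells, against 8.22%, and 7.32% held Zbtb16 (PLZF) against 0.685%. Cd74 was seen in 4 of these 41 cells and 13 of the other 1022, with 63 and 14 UMIs, of which 1 of the 41 cells held 54. Zbtb16 was seen in 3 of the 41 cells, so its share is uncertain (1.54% to 19.9%). Il7r+ cells were thus richer in Tcf7 and Id2, at a median depth of 8417 against 9740 UMIs.

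Markers of other cell types were present to different degrees in the sort. At least 2 of 15 natural killer and innate lymphoid markers were seen in 72.9% of the thinned cells (70.3 to 75.5), like the 74.0% of Flt3- Ly6d+ cells and unlike the 46.1%, 46.1% and 48.7% of Flt3+ Ly6d- HSA-, Flt3+ HSA+ and control cells, with summed levels of 1347, 1335, 863, 826 and 852 CPM in that order and Prf1 at 0. The most widespread of these markers were Nkg7 and Tyrobp, in 1130 and 1106 of the 1205 unthinned cells. Ncr1, Tbx21, Eomes, Klrb1c and Gzma gave only 5, 5, 8, 8 and 12 UMIs, so the share does not show a natural killer program in most cells. At least 2 of 11 mast cell and basophil markers, Cpa3 and Gata2 among them, were seen in 5.17% (3.97 to 6.61), against 0.285%, 0.510%, 1.70% and 1.32% of Flt3+ Ly6d- HSA-, Flt3+ HSA+, Flt3- Ly6d+ and control cells. Their summed level was 354 CPM, against 42.1, 56.6, 232 and 382, and no marker of this list was at 0. The share counts the granulocyte class, which held 70.75% of the Mcpt8 and 70.98% of the Hdc UMIs. Without the class the summed level was 323 CPM, against 30.3, 47.7, 232 and 386. At least 2 of 14 granulocyte and monocyte markers were seen in 31.5%, against 22.7%, 23.6%, 21.1% and 14.3%, with S100a9 at 0. That share, too, counts the class, which the Flt3- Ly6d+ population lacks. The summed level of these markers was 4564 CPM with the class. Without it the level was 595 CPM, against 367, 449, 489 and 275 in the other populations in the same order. At least 2 dendritic cell markers were seen in 3.71%, against 4.62% to 6.04% in the other populations, B cell markers in 0.345%, gamma delta T cell markers in 0.948%, and later thymocyte and thymic epithelial markers in 0 of 1160 cells. Pax5, Ms4a1, Il17a, Psmb11, Foxn1, Krt5 and Krt8 were at 0. The part of mast cell and innate lymphoid cells in the levels of Cpa3, Gata2, Cd160, Tyrobp and Fcer1g was not tested, beyond the values without the 7 mast protease cells, and without the granulocyte class Fcer1g was at 104 CPM against 115 in Flt3- Ly6d+ cells.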

How the data were processed

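The deposited matrix holds counts, as UMIs per gene and barcode, made by the authors with Cell Ranger 3.0 against mm10, per the submitters' processing notes. The authors' assignment of barcodes to hashtagged populations was used as deposited. The sources used here do not give the rule behind it or any earlier filter on cells. Unassigned barcodes were left out and doublets were not called.

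UMIs were summed per population and scaled to 1000000 (CPM) with Python 3.11.15, numpy 2.4.6, scipy 1.17.1 and pandas 2.3.3. Intervals are 95% Poisson (CPM), binomial split (ratios) and Clopper-Pearson (shares). They cover counting error only, and with 1 sort per population no test was run. A count under 3 in the lower population was set to 3. Shares and spread used cells thinned to 3000 UMIs. The scripts were tested on simulated data. TMM factors came from edgeR 4.0.16 and size factors from DESeq2 1.42.0 as alternatives. Of the 27998 gene identifiers, 27645 matched GENCODE M21. The members and gene lists were chosen with earlier results of these data known.

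Genes named are the 12 most apart from every gated population, by the smallest of the 3 ratios, the 8 with the largest ratios against each population (in either direction), the 15 with the largest spread, list members, gate genes and the 6 markers. Predicted, mitochondrial and ribosomal protein genes are counted but not named. Others named are said to be chosen after their values were seen.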

Additional observations from a re-analysis of the deposited data

Results flagged for a closer look

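Signal of the Flt3- Ly6d- HSA- hashtag also lay outside the cells described. Of 345 barcodes that the authors left unassigned, 110 (31.9%) carried that hashtag at 20% or more of their hashtag counts, and 105 of these carried another hashtag at 20% or more as well. Their median was 24468 UMIs, against 9860 in the assigned Flt3- Ly6d- HSA- cells. They entered no comparison.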

How the results depend on the processing

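Counts of genes are given here as higher and lower in Flt3- Ly6d- HSA- cells. Without the granulocyte class there were 62 higher against Flt3+ Ly6d- HSA- cells (40 with it), 8 higher and 28 lower against Flt3- Ly6d+ cells (33 and 13 with it), and 3 higher and 21 lower than every gated population (5 and 4 with it), and the log2 ratios of Hp, Ly6c2 and Rab44 over Flt3- Ly6d+ cells turned to -0.08, -0.38 and -0.35. Leaving out mast protease cells too, a setting added after seeing the data, gave 61, 8, 27, 3 and 20 for the same counts, with Hp at -0.08, Ly6c2 at -0.38, Mcpt8 at -0.33 and Rab44 at -0.45. Hp and Ly6c2 are among the 14 markers that set the granulocyte class. Outside it Hp had 0 UMIs, so its ratio rests on the minimum of 3 counts and shows no reversal. Ly6c2 had 13 UMIs there (1.16 CPM). Without G2 and M class cells, 33 genes were lower against Flt3+ Ly6d- HSA- cells, 34 higher and 63 lower against Flt3+ HSA+, 8 lower against Flt3- Ly6d+, 49 higher and 92 lower against control cells, and 1 lower than every gated population, with Ube2c at 0.31 over Flt3- Ly6d+ cells. Ube2c is among the genes used to pick that class. Without the 5% of cells with most UMIs, 10 genes were higher and 6 lower against Flt3- Ly6d+ cells and 0 lower than every gated population. Weighting cells equally gave 17 higher against Flt3- Ly6d+ cells, and thinning to 3000 UMIs gave 14, with 2 higher than every gated population. With no minimum level but 20 summed UMIs, the counts were 241 and 379, 357 and 483, 241 and 72, and 364 and 700 against Flt3+ Ly6d- HSA-, Flt3+ HSA+, Flt3- Ly6d+ and control cells, and 56 and 18 against every gated population, since genes of few UMIs then enter. The cause of the other shifts was not tested beyond the cells each setting leaves out. TMM and DESeq2 scaling and filters on genes, mitochondrial share and hashtag purity kept all 78 named ratios in direction and near the values given. Other settings moved many of the 78: 46 with thinning, 34 with equal weight per cell and 40 without the 5% deepest cells. Without the G2 and M class 39 moved and 1 reversed, and without the granulocyte class 42 moved and 3 reversed. Leaving out mast protease cells as well, 41 moved and 4 reversed. No paired analysis was possible because each population was sorted once and none shares a replicate number. Depth limits low genes, which rest on few UMIs (66 for Ccr9 and 57 for Fgf3), and shares from 41 or 97 cells have wide intervals.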
